A study of Drosophila melanogaster with 60 samples.

Results

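The probes described here are those whose signal moved least through metamorphosis in Drosophila pupae without a germline. For each oligonucleotide probe, T was the mean of the male and female group means of tud progeny at one time point, on the log2 scale, with at least 2 of the 3 arrays of each group giving a value. Of 15744 probes, 12342 had a value on at least 1 array and 3241 had T at all 5 time points. Probes whose wild type males exceeded tud males by 1 log2 unit or more, averaged over the time points, were left out to remove male germline genes. This took away 151 and kept 3090. No limit was set on the difference between wild type and tud females, so genes of the female germline may remain. The members are the 98 of these (3.17%) in which the highest and the lowest T differed by less than 0.4. They were thus chosen by measured values, the range of T in tud progeny and the male genotype difference, so both are given below as description only.

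The animals came from 2 genotypes. Wild type was the Canton S strain. The tud progeny were the offspring of tud1 bw1 sp1 mothers and fathers with a y and w chromosome marked by P[w+cM UBI-GFP] and lack germline tissue, so in this comparison the absence of the germline goes together with another strain background and a mutant mother, and the 3 cannot be told apart. Daughters of that cross carry the paternal GFP and white+ marker on the X chromosome, which sons do not inherit. Pupae of both sexes and both genotypes were taken at 5 ages (0, 24, 48, 72 and 96 h APF, hours counted from puparium formation). This gave 20 groups of 3 arrays, and each RNA came from pooled whole animals. Every array set 1 sample against a common reference of wild type pupae of both sexes and all stages, so a value is the log2 ratio of sample to reference. Since the RNA was of whole animals, fewer cells of a type and less RNA per cell cannot be told apart.

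During metamorphosis a pulse of the steroid ecdysone removes most larval tissues and the imaginal discs and histoblasts build the adult body, so that genes of the cuticle, the muscles, the fat body and the nervous system rise and fall in turn. Genes that every cell needs, for ribosomes, membrane traffic, protein folding and energy supply, are often taken to be even through such a change and serve as references in quantitative PCR. A steady ratio in a whole animal can come from steady expression in all tissues or from changes in different tissues that offset each other, and arrays of whole animals measure only the sum.

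The 60 arrays held between 3954 and 10236 values each, with a median of 6519.5. The sample dye is given differently by the labels and the published methods, so roX1 set the reading of the sign. This male-specific RNA lay between 0.20 and 2.01 in males (n = 30) and between -8.55 and -2.45 in females (n = 28). A higher value is accordingly read as more RNA in the sample. At 48 h, 2 tud female arrays were placed by their titles: replicate 1 carries the reference's description, and replicate 2 an age slightly off 48 h. No normalization between arrays is given in the sources used here. The mean array median of tud progeny rose from 0.18 at the first time point to 0.31 at 24 h and then went down through 0.14 and 0.10 to 0.03 at the last, a drift of the same order as the limit of 0.4. When each array was centred on its own median, the rule gave 119 members, of which 53 were among the 98.

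The range of T among the members ran from 0.09 to 0.40, with a median of 0.31, against a median of 1.49 in the other 2992 probes. The closest inside the limit were RpL27 at 0.394 and the unnamed probes DAC010L23 at 0.395 and DAC029M12 at 0.398, and the closest outside it were DAC008F21 at 0.401, DAC027J11 at 0.402 and DAC039M08 at 0.403. Most members lay near the reference level throughout. Mean T was above 0 in 73 members and below 0 in 25, and DAC008A14 was the 1 member with a mean T below -1, with T between -1.55 at 0 h and -1.17 at 96 h. The extremes were spread over the time points. The highest T fell at 0, 24, 48, 72 and 96 h in 21, 18, 17, 21 and 21 members and the lowest in 29, 11, 24, 19 and 15.

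The F test over the 5 time points in tud progeny passed in 29 of 98 members, against 95.2% of all probes tested. The rule itself used this contrast, so a low count was built in and nothing is read from it. The test passed in 47 members with centred arrays (against 94.8% of all probes) and in 35 with quantile normalization (against 94.3%). The range of the tud male means alone was under 0.4 in 54 members and that of the tud female means in 42, and both were in 23. The widest was carmine (cm), which encodes the mu subunit of the AP-3 adaptor of lysosome-related organelles and is known for its effect on eye pigment. Its tud male arrays gave 1.49 and 1.58 at 96 h, and its tud female arrays gave -0.07 and -0.13, so that the sexes lay far apart while T stayed between 0.38 and 0.72. Sec71, an Arf exchange factor of the Golgi that was picked out after its values were seen, had tud female values of -0.42, -2.37 and -0.37 at 96 h. Its tud female range of 0.84 therefore rests on 1 array.

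**Figure D1:**
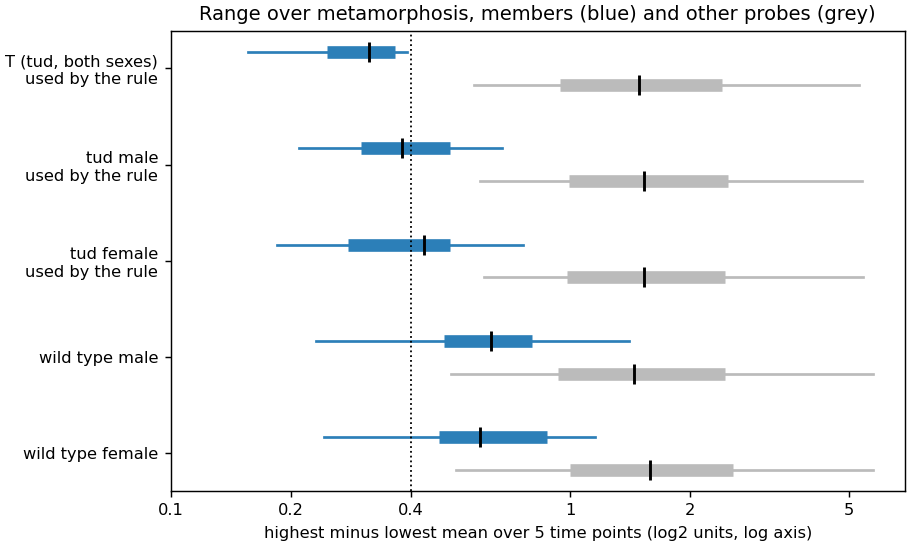
Range of the means over the 5 time points (log2 units, log axis) for the 98 members (blue) and the other 2992 probes (grey), for T and for each genotype and sex. Black ticks are medians, thick bars the 25th to 75th percentile and thin lines the 5th to 95th percentile, and the dotted line is the limit of 0.4. The members' medians were 0.31 for T, 0.63 in wild type males and 0.60 in wild type females, against 1.49, 1.44 and 1.58 in the other probes.

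Names could be paired with 36 of the 98 members (36.7%), as with 38.2% of the 3090 probes, and the other 62 are given by their identifier. The names come from gene lists published with the study, drawn up on these same arrays or on its separate direct comparisons at 48 h. Named members are therefore not a random sample of the 98. They include several genes of membrane traffic and of the endoplasmic reticulum (ER): the alpha and mu subunits of the AP-2 clathrin adaptor, cm, Sec71, the p24 cargo receptor CHOp24, the subunits EMC4 and EMC10 of the complex that inserts membrane proteins, Derlin-1 (Der-1) of ER-associated degradation, the ER-shaping ReepB, Bax Inhibitor-1 (BI-1) and the proton pump subunit Vha100-1. Others serve growth and energy signalling, such as the kinase AMPKalpha and the TOR pathway GTPase RagC-D, or the cytoskeleton, such as the microtubule-severing Kat60. This grouping was made after the values were seen. No role is given here for the members with a CG number alone.

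Most of the household lists held no member. Members were 3.17% of the 3090 probes, so nothing is read from the absence of members in lists this short. In the cytosolic ribosomal protein list, the 10 probes with T had ranges between 0.39 and 0.85, with a median of 0.57, and none reached 1, while the median of all 3090 probes was 1.45. RpL27 alone of them was a member, and the next were RpL21 at 0.43, RpL9 at 0.49 and RpL6 at 0.51. The vesicle traffic list held 3 members among 24 probes (AP-2alpha at 0.25, AP-2mu at 0.32 and Sec71 at 0.33), with a median range of 0.96 and a highest of 2.29 in the syntaxin Syx13. Of the other adaptor subunits in it, AP-1sigma had a range of 0.42 and AP-2sigma one of 0.50, and the clathrin heavy chain Chc one of 1.75. The chaperone list held the DnaJ co-chaperone Droj2 at 0.19 among 10 probes with a median of 2.00, and the splicing list held Spx at 0.32 beside Sf3b6 at 3.02.

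The proteasome list had no member, where members made up 3.17% of all 3090 probes. Each of its 33 probes had a range of T of at least 1, from 1.54 to 2.38. Each of the 10 probes for the respiratory chain and ATP synthase likewise lay above 1, with a median of 2.70, and the 10 probes of the translation factor list, 6 of them for eIF4A, had a median of 2.73. Of the genes used as references in quantitative PCR, none was a member. Their ranges of T were 1.24 for alphaTub84B, 1.28 for Hsp83, 1.98 for Gapdh2, 2.57 for Act42A and 3.01 for SdhA. The stage lists had medians of 4.95 for 15 cuticle proteins, 6.18 for 10 muscle genes, 3.56 for 13 genes of the ecdysone response and 2.63 for 5 storage proteins of the larval fat body, and none of them held a member.

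Wild type animals were not used to measure T, and there the members had smaller ranges than other probes. The range of the 5 group means had a median of 0.60 in wild type females (n = 89 members with all means) against 1.58 in the other probes, and of 0.63 in wild type males (n = 91) against 1.44. A range of at least 1 was reached by 12 members in females (13.5%, against 75.0% of the other probes) and by 12 in males (13.2%, against 71.5%). The wild type range was larger than the range of T in 79 of 89 members in females and in 84 of 91 in males. T averages up to 6 arrays per time point and a wild type mean up to 3, and the members were chosen for a small range of T. The part of either in the wider wild type ranges was not tested. The median SD of replicate arrays among members was 0.21 in wild type females and 0.24 in wild type males. Of the 84 members with all means in both wild type sexes, 1 stayed under 0.4 in both, the unnamed DAC027C16 with 0.38 in females and 0.22 in males.

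In wild type females, time had an effect on 59 of 89 members tested (66.3%, limma F test over the 5 time points, Benjamini-Hochberg adjusted p under 0.15), against 88.7% of the 4315 probes tested. The highest mean fell at 48 h in 19 of the 59 (32.2%, against 19.2% of the 3826 probes that passed) and at 0 h in 18 (30.5%, against 22.2%). The lowest mean fell at 96 h in 33 (55.9%, against 40.9%). The mean array median of wild type females itself went from 0.19 at 0 h and 0.21 at 24 h to 0.05 at 96 h. By the mean of the later time points less 0 h, 24 of the 59 were higher and 35 lower. Of the 3826 probes that passed, 1842 were higher and 1984 lower. With centred arrays 58 passed (against 87.7% of all probes), 34 of them higher and 24 lower. Centring moved the median of that difference from -0.03 to 0.02 among members tested and from -0.03 to 0.03 among all probes. The 5 named members with the widest ranges ran in different directions at the end.

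HBS1, the GTPase that with Pelota frees stalled ribosomes, held wild type female values of -0.15, -0.24 and -0.00 at 0 h and of -1.90, -0.92 and -1.40 at 96 h, with no overlap. Its range was 1.28 (adjusted p = 2.96e-04). The ER membrane complex subunit EMC4 rose and then fell, from -0.49, -0.41 and -0.40 at 0 h through -0.02, -0.07 and 0.38 at 72 h to -1.03, -0.79 and -0.84 at 96 h. Every array at 96 h was lower than every earlier one, and the range was 0.98 (adjusted p = 7.57e-06). Fgop2, a subunit of the STRIPAK phosphatase complex, likewise was lowest at 96 h, with -0.98, -1.30 and -1.01 against -0.20, -0.17 and -0.24 at 72 h (range 1.01, adjusted p = 9.02e-04).

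Droj2 took the opposite course at the end. Its wild type female arrays read -0.13, -0.48 and -0.58 at 72 h but 0.47, 0.62 and 0.70 at 96 h, the highest of all hours (range 0.99, adjusted p = 6.00e-04), while T stayed between -0.38 and -0.19. CG33229 peaked at 24 h with 0.10, 0.60 and 0.66, had its lowest values of -0.48, -0.81 and -1.06 at 72 h and returned to 0.14, 0.17 and 0.19 at 96 h (range 1.24, adjusted p = 1.40e-04). The smallest ranges among the named members that passed were those of gogo, an axon guidance receptor of photoreceptors (0.46, adjusted p = 0.0293), of BI-1 (0.47, adjusted p = 0.0116) and of CG12360 (0.51, adjusted p = 0.0912). The call for CG12360 was lost in 3 of 58 fits without 1 array, with a highest adjusted p of 0.383.

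In wild type males, time had an effect on 58 of 91 members tested (63.7%, the same test), against 81.4% of the 4962 probes tested. The lowest mean fell at 96 h in 25 of the 58 (43.1%, against 36.4% of the 4038 probes that passed) and at 0 h in 19 (32.8%, against 30.1%). The highest fell at 0 h in 19 (32.8%, against 28.4%) and at 96 h in 15 (25.9%, against 28.2%). By the mean of the later time points less 0 h, 26 of the 58 were higher and 32 lower. Of the 4038 probes that passed, 2081 were higher and 1957 lower. With centred arrays 69 of 91 passed (against 82.1% of all probes), so members lay closer to all probes than in the main fit. Of these 69, 37 were higher and 32 lower. Centring moved the median of that difference from -0.08 to -0.01 among members tested and from 0.12 to 0.19 among all probes. Of the 84 members tested in both sexes, 39 passed in both (46.4%, against 82.4% of all 3791 probes), 18 in females alone, 17 in males alone and 10 in neither (11.9%, against 5.41%). A pass in one sex alone is no test of a difference. Such a test, of whether the sexes differed unequally across the time points, passed in 24 of 84 members (28.6%), against 34.5% of all probes. That count was 15 with wild type male 0 h replicate 1 left out and 38 with replicate 3 left out. Whether the share of all probes moved as much was not tested.

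The widest named course in males was that of egghead (egh), a mannosyltransferase of glycosphingolipid synthesis. Its wild type male arrays read 0.35, 0.52 and 0.44 at 0 h, fell to -0.64, -0.80 and -0.73 at 24 h and stood at 0.14, 0.41 and 1.16 at 96 h. The arrays at 24, 48 and 72 h all lay below those at 0 and 96 h, and the range was 1.40 (adjusted p = 3.79e-08). CG33229 had its lowest male values at 72 h, -1.28 and -1.34, as in females, and reached 0.26, -0.17 and 0.06 at 96 h (range 1.36, adjusted p = 9.59e-05).

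RpL27, of the large ribosomal subunit, was among the members whose sex difference changed over time (adjusted p = 0.0414). In wild type males it went from 0.25, 0.59 and -0.27 at 0 h to -1.13, -0.71 and -1.01 at 96 h (range 1.14, adjusted p = 4.00e-04). In wild type females its 5 means spanned 0.36 (adjusted p = 0.518). Glutathione synthetase (Gss1) rose in males from -1.99, -1.13 and -0.65 at 0 h to -0.23, 0.08 and -0.43 at 96 h (range 1.07, adjusted p = 0.00136), while its wild type female means spanned 0.24 (adjusted p = 0.902). Its sex difference also changed over time (adjusted p = 0.0539). CHOp24 fell in males from 0.37, -0.14 and -0.65 to -0.78, -1.01 and -0.95 (range 0.77, adjusted p = 0.0399). That call was lost without wild type male 0 h replicate 1, with an adjusted p of 0.315.

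**Figure D2:**
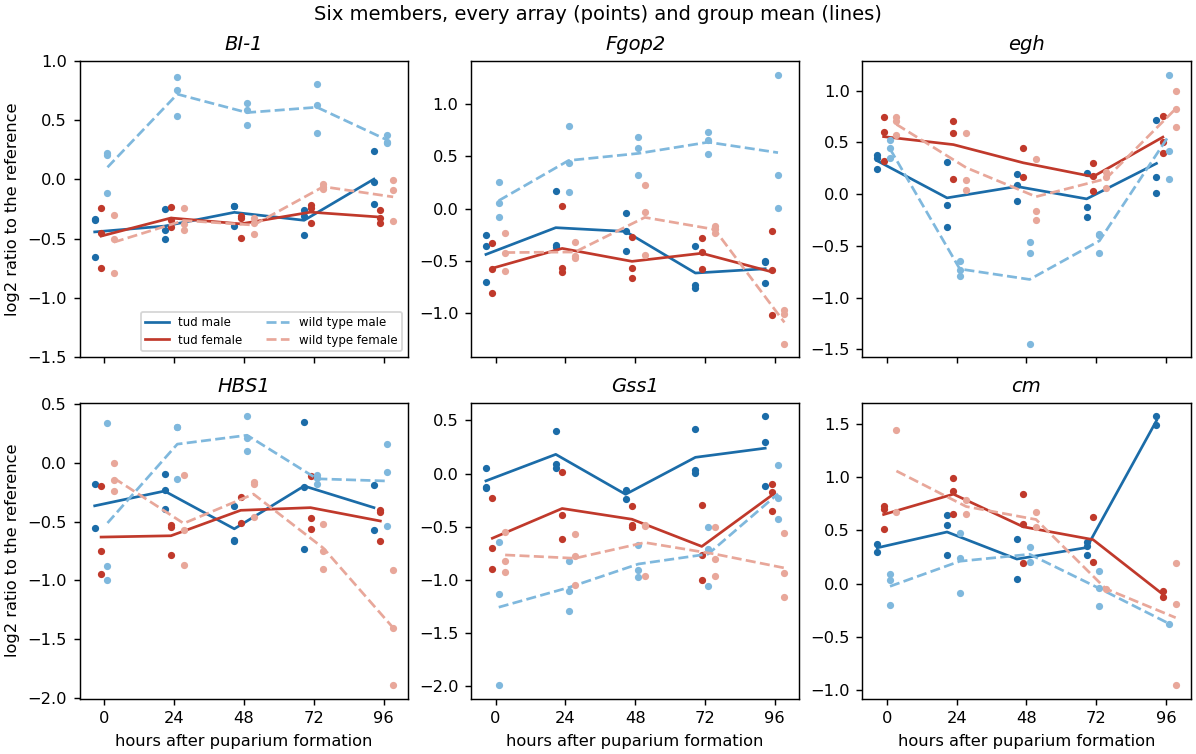
Log2 ratio to the reference against hours after puparium formation for 6 named members, with every array as a point and the group mean as a line (solid for tud progeny, dashed for wild type, blue for males, red for females). Where 1 array gave a value, the line passes through it. BI-1 and Fgop2 lay higher in wild type males than in the other groups, egh dropped at 24 to 72 h in wild type males, HBS1 fell at 96 h in wild type females, and cm split between the sexes at 96 h in tud progeny.

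The steps between successive time points were then tested one by one. Between 0 and 24 h, 7 of 94 members changed in females (7.45%, moderated limma test, against 39.6% of all probes tested) and 31 of 97 in males (background 38.8%). Of those in males, 14 rose (background 20.5%) and 17 fell (18.3%). BI-1 rose by 0.62 ± 0.14 (SE, adjusted p = 4.46e-04) and egh fell by 1.16 (SE 0.22, adjusted p = 5.44e-05). The male count depended on the arrays at 0 h: without replicate 1 it was 16, without replicate 3 it was 43, and with only the arrays compared in the fit it was 9. The female count was 3 without the 24 h replicate 2 and 12 without replicate 3. Here and below, counts from fits with arrays left out are of members alone. Whether the share of all probes moved as much was not tested.

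From 24 to 48 h, 17 of 93 members changed in females (background 40.1%), of which 16 rose (26.4%), and 3 of 97 changed in males (17.2%). The ER membrane complex genes EMC10 (0.47 ± 0.18, adjusted p = 0.0391) and EMC4 (0.37 ± 0.17, adjusted p = 0.101) were among those that rose in females, values being log2 differences with SE. Without the 24 h replicate 2 the female count was 11, and without the 24 h replicate 1 the male count was 10. From 48 to 72 h, 13 of 92 changed in females (45.3%) and 5 of 97 in males (28.7%), or 2 without the 48 h replicate 2.

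The step from 72 to 96 h passed in 40 of 97 members in females (background 52.8%), of which 30 fell (35.1%), and 37 of 93 in males (52.6%), of which 24 fell (26.7%) and 13 rose (25.9%). With the arrays centred on their medians, 24 members fell and 17 rose in females. Centring moved the median female change from -0.17 to -0.11 among members and from -0.25 to -0.19 among all probes. EMC4 fell in both sexes, by 0.98 in females (SE 0.17, adjusted p = 1.14e-05) and by 0.50 in males (SE 0.17, adjusted p = 0.0167). CG33229 and egh rose in both, by 0.95 and 0.68 in females and by 1.36 and 1.02 in males.

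**Figure D3:**
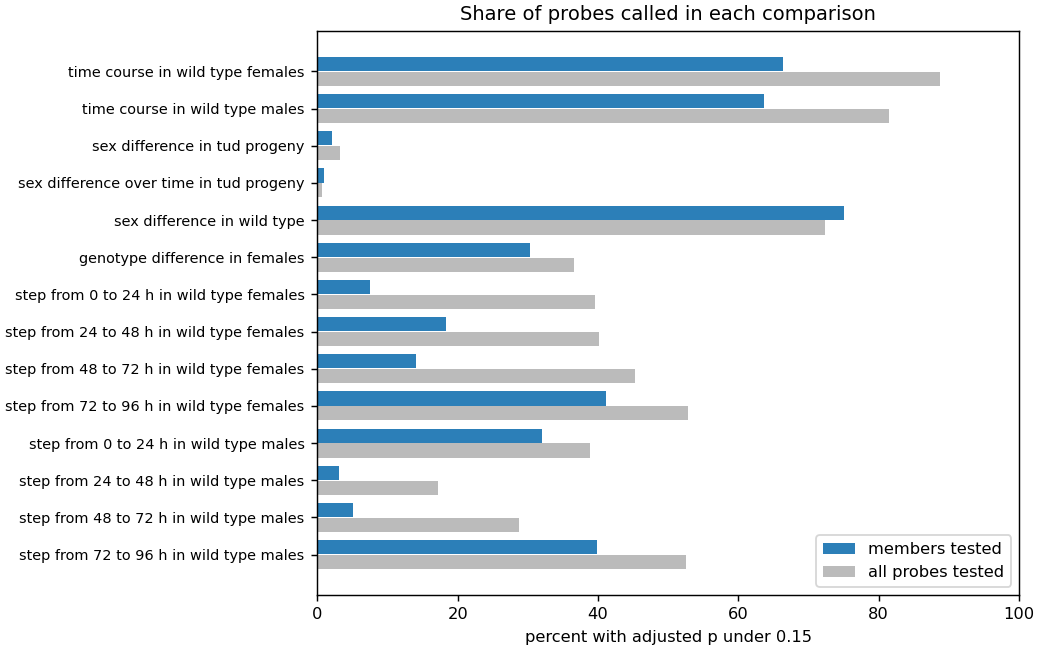
Percent of the members tested (blue) and of all probes tested (grey) with an adjusted p under 0.15 in each comparison, on a linear axis from 0 to 100. Members passed less often than all probes over time in wild type females (66.3% against 88.7%) and about as often for the wild type sex difference (75.0% against 72.4%).

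Most members differed between the sexes of wild type. The sex difference over the 5 time points passed in 63 of 84 members tested (75.0%, limma F test), a share near the 72.4% of all 3791 probes tested. By the mean over time, 18 of the 63 were higher in males (background 19.0%) and 45 higher in females (background 53.3%). Centring the arrays changed the split to 25 and 31. The median male minus female difference was -0.15 among members and -0.20 among all probes. With centred arrays it was -0.06 and -0.12, so both medians moved.

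The wild type male arrays behind these sex differences also entered the germline exclusion, which left out probes by the wild type minus tud difference in males. In the 18 male-higher members the median male minus female difference was 0.51 in wild type and 0.04 in tud progeny, given as a description. The change of the sex difference between the genotypes, which contains that male difference, passed in 45 of 84 members, against 49.3% of all probes, and nothing is read from it. In 10 members wild type males exceeded tud males by 0.5 to 1 log2 unit, with differences between 0.55 and 0.99. A limit of 0.5 in place of 1, chosen after seeing the data, left 88 members. In the male germline list, 14 of 16 probes exceeded the limit, with a median difference of 4.12. The exceptions were Sdic1 and dj-1beta, the latter matched by its name only.

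CG12360 showed the largest wild type sex difference, 0.98 ± 0.09 log2 units (mean over time, SE, adjusted p = 8.21e-11). Wild type males read 0.61, 0.78 and 0.26 at 24 h, wild type females -0.98, -0.82 and -0.71, tud males -0.69, -0.80 and -0.72 and tud females -0.52, -0.56 and -0.62, so the wild type males stood apart from all others. Fgop2 differed by 0.89 ± 0.10 (adjusted p = 1.55e-08) and Sdic1 by 0.81 ± 0.07 (adjusted p = 2.54e-11). Sdic1 encodes a sperm-specific dynein intermediate chain and belongs to a cluster of nearly identical copies, so which copy the probe measured is uncertain. BI-1, a guard against cell death at the ER, differed by 0.76 ± 0.06 (adjusted p = 2.67e-12), with wild type males at 0.54, 0.76 and 0.87 at 24 h and tud males at -0.51, -0.25 and -0.43. These genes lay not far under the exclusion limit of 1. Wild type males exceeded tud males by 0.85 in CG12360, 0.86 in Fgop2, 0.92 in Sdic1 and 0.76 in BI-1, values the rule used.

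Higher in wild type females were egh, by 0.57 (SE 0.10, male minus female -0.57, adjusted p = 7.48e-05), CG33229 (-0.53 ± 0.11, adjusted p = 0.00123) and AP-2alpha (-0.52 ± 0.07, adjusted p = 8.82e-06). AP-2alpha, the large subunit of the adaptor of clathrin-mediated endocytosis, read 0.53, 0.85 and 0.71 in wild type females at 0 h and -0.10, 0.51 and 0.32 in wild type males, and 0.49, 0.23 and 0.52 against -0.13, -0.45 and -0.75 at 96 h. The sexes did not overlap at either hour. Its partner AP-2mu had a difference of -0.34 (adjusted p = 0.0195).

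**Figure D4:**
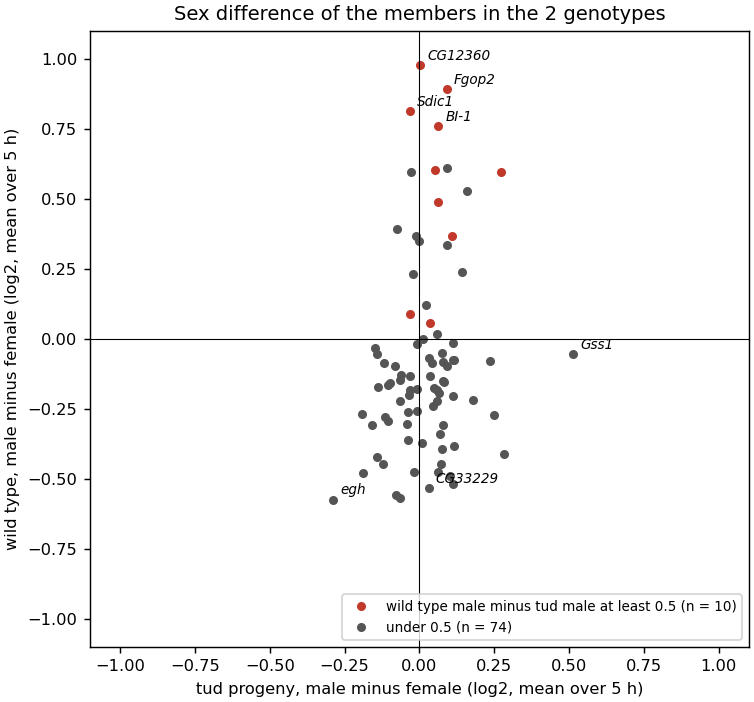
Male minus female difference (log2, mean over 5 time points) of the 84 members tested, in tud progeny (horizontal axis) and wild type (vertical axis), each point a member. The 10 members with a male genotype difference of at least 0.5 (red) lay above 0 in wild type. The choice of these points and the vertical axis use the same wild type male arrays, so their position is a description only. Members spread between -0.57 and 0.98 in wild type but between -0.29 and 0.51 in tud progeny.

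In tud progeny, which gave the members, few members passed for a sex difference in the main fit, a share near that of all probes. More passed with array weights, as given below, but without the share of all probes nothing about members is read from this. The F test of the male minus female difference over the 5 time points passed in 2 of 98 members (2.04%, against 3.24% of the 3241 probes tested). At an unadjusted p under 0.05 there were 11, against 430 of the 3241 probes. Its dependence on time passed in 1 (1.02%, against 0.679%), and 7 had an unadjusted p under 0.05, against 351 of the 3241 probes. Gss1, the last enzyme of glutathione synthesis, was higher in males by 0.51 ± 0.11 (adjusted p = 0.0476). At 0 h its tud males read 0.05, -0.12 and -0.13 and its tud females -0.70, -0.23 and -0.90, with no overlap. In wild type the mean difference was -0.05.

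The other was cm, whose mean difference was small (0.12 ± 0.11, adjusted p = 0.00684 by the F test over the 5 hours). Males were lower at 0 h, with 0.30 and 0.37 against 0.52, 0.73 and 0.70, and far higher at 96 h, as given above, and it was the member whose sex difference changed over time (adjusted p = 0.00993). Replicate 2 was missing at 96 h in both sexes. Under quantile normalization between arrays cm lost the call, with an adjusted p of 0.172.

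The last comparison, between wild type and tud females averaged over time, used the tud female arrays, which also entered T, and the wild type female arrays, which did not. It passed in 27 of 89 members (30.3%, moderated limma test, against 36.6% of the 3290 probes tested). By direction, 9 were higher in wild type (background 16.1%) and 18 lower (20.5%), and the median difference was -0.07 among members and -0.02 among all probes.

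Higher in wild type females were CG14480 (0.47 ± 0.10, adjusted p = 7.45e-04), RpL27 (0.35 ± 0.11, adjusted p = 0.0160), Droj2 (0.35 ± 0.09, adjusted p = 0.00391) and Spx (0.14 ± 0.07, adjusted p = 0.145), a spliceosomal protein whose call was lost in 25 of 58 fits without 1 array. CG14480 had the lowest T of the named members, between -1.08 and -0.88. At 0 h it read -0.50, -0.14 and -0.60 in wild type females and -1.32, -1.11 and -1.78 in tud females, without overlap. At 24 h the groups overlapped, with -0.93, -1.69 and -0.32 against -1.35, -1.18 and -1.22.

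Lower in wild type females were CHOp24 (-0.39 ± 0.11, adjusted p = 0.00557), tadr (-0.39 ± 0.09, adjusted p = 0.00180), Gss1 (-0.32 ± 0.11, adjusted p = 0.0240) and EMC4 (-0.27 ± 0.08, adjusted p = 0.0118). tadr, known for its role in the rhabdomeres of photoreceptors, read -0.29, 0.00 and -0.04 at 0 h in wild type females and 0.35, 0.14 and 0.52 in tud females, and -0.06, -0.44 and 0.08 against 0.40 and 0.22 at 96 h. The genotypes did not overlap at either hour. The largest difference of all members was that of DAC008A14, at 0.97, a probe picked out after its values were seen and the one with the lowest T.

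The unnamed DAC024E19, also picked out afterwards, had the largest wild type female range of all members, 2.55 (adjusted p = 2.91e-12). Its wild type female arrays at 96 h read 2.36, 2.28 and 2.36, and none of the earlier ones was above 0.18. In wild type males it read 1.17, 0.40 and 1.24 at 96 h, and in tud females -1.05, 0.34 and 0.42, so the rise was large in wild type females and the replicates of tud females did not lie together.

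The probe with the smallest range of T, CG8586 at 0.09, and the next named one, CG3107 at 0.12, were also picked out afterwards and differed in wild type. CG8586 rose in wild type females from -0.62 and -0.46 at 0 h to 0.27, 0.50 and 0.51 at 96 h, with an adjusted p of 7.86e-04 over time, and its male means at 0 and 96 h were -1.05 and 0.30. CG3107 had ranges of 0.49 in wild type females and 0.27 in males and passed the time test in neither (adjusted p = 0.157 and 0.676).

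**Figure D5:**
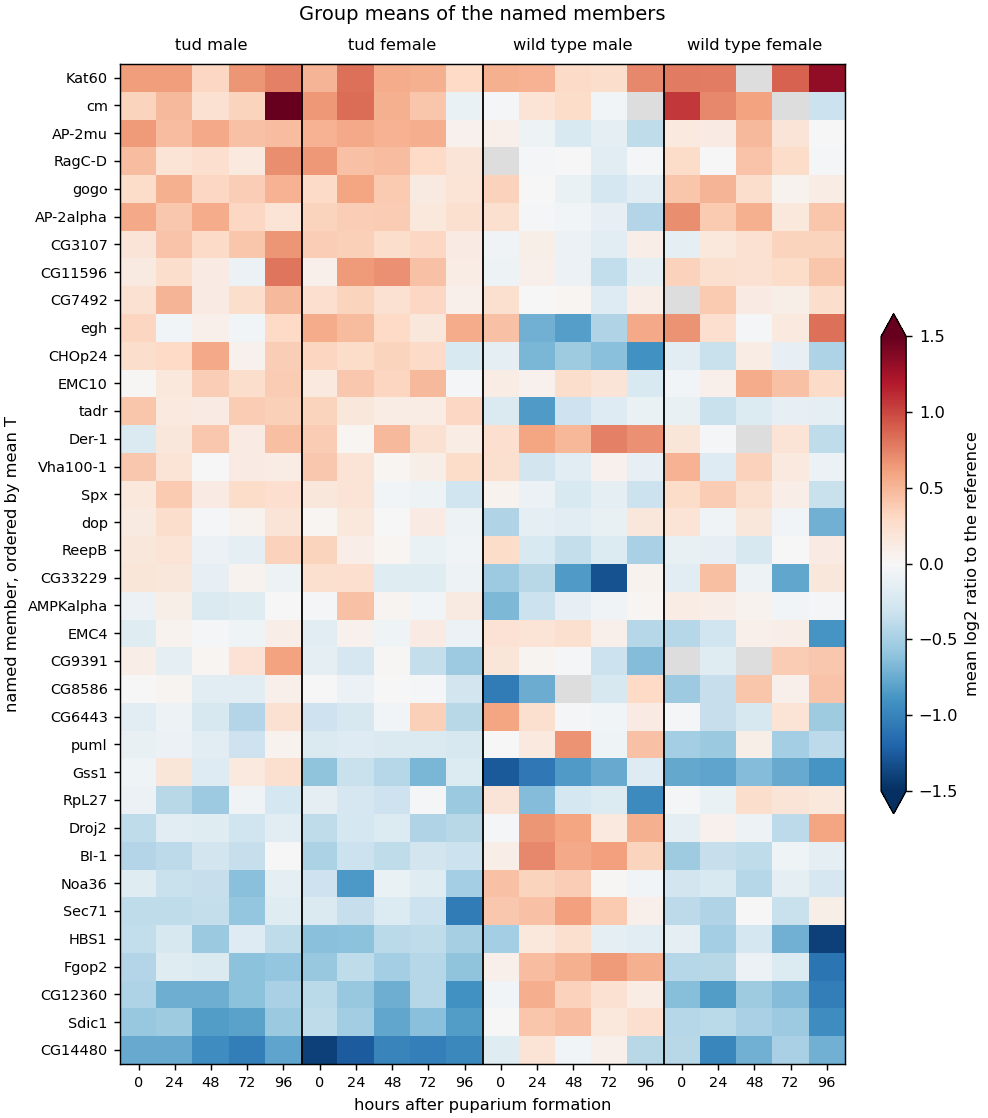
Mean log2 ratio to the reference of the 36 named members (rows, ordered by mean T) in the 20 groups of genotype, sex and hour after puparium formation (columns). Grey cells had fewer than 2 values. The widest range over the tud columns is that of cm (1.63), followed by CG9391 (1.16), and the wild type male means at 24, 48 and 72 h lie above 0 in Sdic1, CG12360, Fgop2 and BI-1, whose tud means lie near or below 0.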

How the data were processed

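Two-colour arrays were used to compare 60 samples in 20 groups of 3. As deposited, each value is the log2 ratio between a sample and the common reference, which the authors normalized by global loess within each array, and elements the authors flagged as bad, or as weak in both channels, are missing. Background correction and normalization between arrays are not given in the sources used here. The 32 control elements were left out.

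Group means of all arrays were fitted with limma 3.58.1 (statmod 1.5.0, R 4.3.3), and empirical Bayes F or moderated tests were adjusted by Benjamini-Hochberg over all probes with at least 2 values in each group compared, with a threshold of 0.15. Where values are missing unevenly, the F tests are approximate. Summaries used Python 3.11.15, numpy 2.4.6, pandas 2.3.3 and matplotlib 3.10.9. The script was tested on simulated data. No source places replicates in separate cultures or crosses, so p-values measure the spread between these samples, which may be technical. The number of arrays limits the precision.

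The members, lists and named-gene rule were chosen with earlier results of these data known. The rule named 18 genes: the extremes of range, of sex difference and of genotype difference among named members, and those of smallest range of T with all values. Of 2357 named probes, 2325 matched RefSeq (Release 6), used for names only. Alternatives were other limits, filters, scalings, thresholds, array weights, a replicate block and leaving out each array.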

Additional observations from a re-analysis of the deposited data

Results flagged for a closer look

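For 16 of the 18 genes named by rule the male minus female difference, averaged over time, differed between wild type and tud progeny by the interaction term of the limma fit. That term passed in 49.3% of all 2843 probes tested, and some of the 18 were named for their sex difference. The values below are the wild type difference less the tud difference, in log2 units. This difference contains the male genotype difference that was used to choose the members, so the count and the values are a description only. The difference was more male in wild type for CG12360 (0.98), Sdic1 (0.85), Fgop2 (0.80) and BI-1 (0.70). The same direction held, with smaller values, for HBS1 (0.37), EMC4 (0.35), CG14480 (0.32) and Droj2 (0.26).

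It was more female in wild type for AP-2alpha (-0.63), Gss1 (-0.57), CG33229 (-0.56) and Spx (-0.52). The others were CHOp24 (-0.50), RpL27 (-0.46), gogo (-0.39) and egh (-0.28). The male minus female difference of Gss1 was -0.05 in wild type and 0.51 in tud progeny, and that of egh was -0.57 and -0.29.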

How the results depend on the processing

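The number of members was 40 with a limit of 0.3, 180 with 0.5 and 26 with all 3 values required in each group. It was 119 with centred arrays (53 shared) and 116 with quantile normalization (65 shared). Calls in this section are counted among the members of the main rule, not among the sets chosen again under each setting. Requiring all 3 values gave 38 calls over time in wild type females, 29 for the wild type sex difference, 9 for the female genotype difference and 0 for both tud sex tests. An adjusted p under 0.05 gave 16 for the female genotype difference. At that threshold the successive steps in wild type females gave 3, 8 and 5 up to 72 h, and those in males 0 from 24 to 48 h, 2 from 48 to 72 h and 23 from 72 to 96 h. Array weights gave 19 and 5 for the tud sex difference and its change over time, 15, 30, 29 and 63 for the female steps and 48, 15 and 19 for the male steps up to 72 h. Quantile normalization gave 1 and 0 for the tud sex tests, against 2.31% and 0.741% of all probes. It gave 20 for the female step from 48 to 72 h (against 52.4%), and 10 and 15 for the male steps from 24 to 48 and 48 to 72 h (against 21.9% and 43.4%). Centring gave 7 for the male step from 24 to 48 h (against 18.7%). The other counts in this section are of members alone, without the share of all probes. When the fit held no other groups, the female step from 24 to 48 h gave 10 and the male steps up to 72 h gave 9, 0 and 15. The sex difference of cm in tud progeny reversed under quantile normalization, to -0.00065 (adjusted p = 0.172). The cause of these shifts was not tested, except that stricter limits and filters keep fewer probes or calls by construction.

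Leaving out 1 array gave 66 to 98 members, the fewest without tud male 0 h replicate 3. Among the members of the main rule, calls in these fits ranged from 48 to 64 over time in wild type females and from 50 to 62 in males. They ranged from 0 to 5 and from 0 to 3 for the tud sex tests. For the wild type sex difference they ranged from 53 to 64, and for the female genotype difference from 19 to 31. The female steps ranged from 3 to 12, 11 to 20, 9 to 14 and 32 to 42, and the male steps from 16 to 43, 1 to 10, 2 to 5 and 26 to 37. The lowest tud sex count came without tud male 48 h replicate 2 and the highest without tud male 96 h replicate 1. For named genes, 29 of 1692 values from left-out arrays and 10 of 218 from other alternatives kept the direction but lost the call, in Spx, CG12360, CHOp24 and gogo, and cm lost it with its sign. With the replicate number as a block, 60 members were called over time in wild type females and 58 in males. Deviations from group means correlated at a mean of 0.01 for the same replicate number (from -0.55 to 0.58) and -0.01 for different ones. Deviations cancel within a group, so the second mean follows from the first and adds nothing. Whether replicate numbers paired the samples of some groups was not tested.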
